A study of Homo sapiens with 6 samples.

Results

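The genes of the circadian clock are described here through 10 genes chosen by symbol: CLOCK, PER1, PER2, PER3, CRY1, CRY2, NR1D1, NR1D2, BHLHE40 and BHLHE41. Of these, 9 had a row in both count tables, which hold 37493 Ensembl identifiers, and PER1 was not analysed here. The list was drawn up with the OE33 comparison of siPPARG with control in view, because BHLHE41 was among its largest falls. The values of that comparison are therefore a description of the members and are given without a test.

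RNA was sequenced from 2 human esophageal adenocarcinoma cell lines, Eso26 grown in RPMI-1640 and OE33 grown in DMEM, each medium supplemented with fetal bovine serum, penicillin and streptomycin. Each line was transfected by Lipofectamine RNAiMAX with an siRNA that silences no gene (non-silencing, called control) or one that targets PPARG (siPPARG), which gives 4 groups of 1 library. PPARG, a lipid-sensing nuclear receptor, is tied by the title of the series to master regulators of this cancer and to the making of fatty acids. Line and medium cannot be told apart, and neither can loss of PPARG and a response to the siRNA itself. The hour of harvest and any synchronisation of the cultures were not among the labels, so for genes that cycle a difference of phase and a difference of mean level cannot be told apart. In bulk RNA, fewer cells of a type and less RNA per cell cannot be told apart either.

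The clock is a loop of transcription that runs in most cells. CLOCK, or its paralog NPAS2, pairs with the ARNTL protein (also called BMAL1) and binds E-box elements in the PER, CRY, NR1D and BHLHE genes. The PER and CRY proteins then inhibit that pair. NR1D1 and NR1D2 (REV-ERB alpha and beta) are nuclear receptors that repress ARNTL, where the ROR receptors act as activators. BHLHE40 and BHLHE41 (DEC1 and DEC2) are repressors that bind E-boxes themselves. DBP, TEF and HLF activate genes through D-boxes, and NFIL3 represses them.

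The promoters shown are those of the members with the largest and the opposed differences, BHLHE41 and BHLHE40, and of NR1D2, which held most motifs. Each is the 250 bases before a RefSeq transcription start on GRCh38.p14, written on the gene's own strand, with the E-box CACGTG and the D-box TTATGTAA (either strand) in capitals. The windows are chr12:26125038-26125287 on the minus strand for BHLHE41, chr3:4979187-4979436 on the plus strand for BHLHE40 and chr3:23945871-23946120 on the plus strand for NR1D2.
BHLHE41: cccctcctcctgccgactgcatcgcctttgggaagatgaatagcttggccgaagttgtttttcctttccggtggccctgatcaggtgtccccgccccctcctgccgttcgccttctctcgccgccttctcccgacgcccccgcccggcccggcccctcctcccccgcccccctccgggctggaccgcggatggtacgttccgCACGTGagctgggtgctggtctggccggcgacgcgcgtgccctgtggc
BHLHE40: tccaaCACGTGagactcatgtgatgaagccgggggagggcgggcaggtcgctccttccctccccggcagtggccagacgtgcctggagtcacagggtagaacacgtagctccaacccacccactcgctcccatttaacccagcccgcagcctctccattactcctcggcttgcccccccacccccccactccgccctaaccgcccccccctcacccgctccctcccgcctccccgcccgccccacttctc
NR1D2: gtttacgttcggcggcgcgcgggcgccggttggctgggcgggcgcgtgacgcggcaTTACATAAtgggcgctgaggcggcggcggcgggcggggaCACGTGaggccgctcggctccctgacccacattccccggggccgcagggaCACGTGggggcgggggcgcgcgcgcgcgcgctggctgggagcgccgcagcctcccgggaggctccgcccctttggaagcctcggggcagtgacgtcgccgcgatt
All 10 symbols matched the RefSeq promoter table, with 14 windows of 300 bases (250 before and 50 after a start). The E-box stood in 4 of these 14 windows, of the genes BHLHE40, BHLHE41, PER1 and NR1D2, and 7.26% of all 35116 windows hold it. The D-box stood in 2 of the 14 windows, of PER3 and NR1D2, against 0.886% of all windows. The nuclear receptor hexamer AGGTCA stood in 3 of the 14 windows, of PER1 and CRY2, against 13.8% of all windows. A direct repeat of AGGTCA with 1 base (N) between the copies, a form of the element bound by PPARG with RXR, stood in 0 of these windows and in 0.0228% of all windows, and each such repeat also holds AGGTCA. Both strands were searched. These are matches of letters in short windows, and the PPARG peak lists, which are on hg19, were not placed at these genes.

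Library totals ran from 16866996 to 23019840 counts. In OE33, PPARG went from 2156 counts to 313 after siPPARG, a ratio of 0.137 (95% counting interval 0.121 to 0.154). In Eso26 it went from 259 counts in the control to 201 in the library labelled siPPARG, a ratio of 0.851 (interval 0.704 to 1.03), so a reduction of PPARG mRNA was not detectable there at this depth. Of 7 columnar epithelial markers, 6 were at 5 CPM (counts put on the same library size) or more in every library, with summed levels of 5030 to 9326 CPM. TFF3 was listed at 0 in both OE33 libraries, which allows up to 0.178 CPM in the control and 0.165 CPM in siPPARG. The squamous, fibroblast and endothelial lists summed to 0.166 to 8.38 CPM. The leukocyte list summed to at most 25.4 CPM, nearly all of it LYZ in Eso26, with CD3E at 0 in every library. All intervals in this text cover counting error only, and no within-line value has a replicate check. Past the filter of 5 CPM in at least 1 library of a comparison were 7 of the 9 clock genes in Eso26 and all 9 in OE33. BHLHE41 and PER3 fell under it in Eso26.

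**Figure D1:**
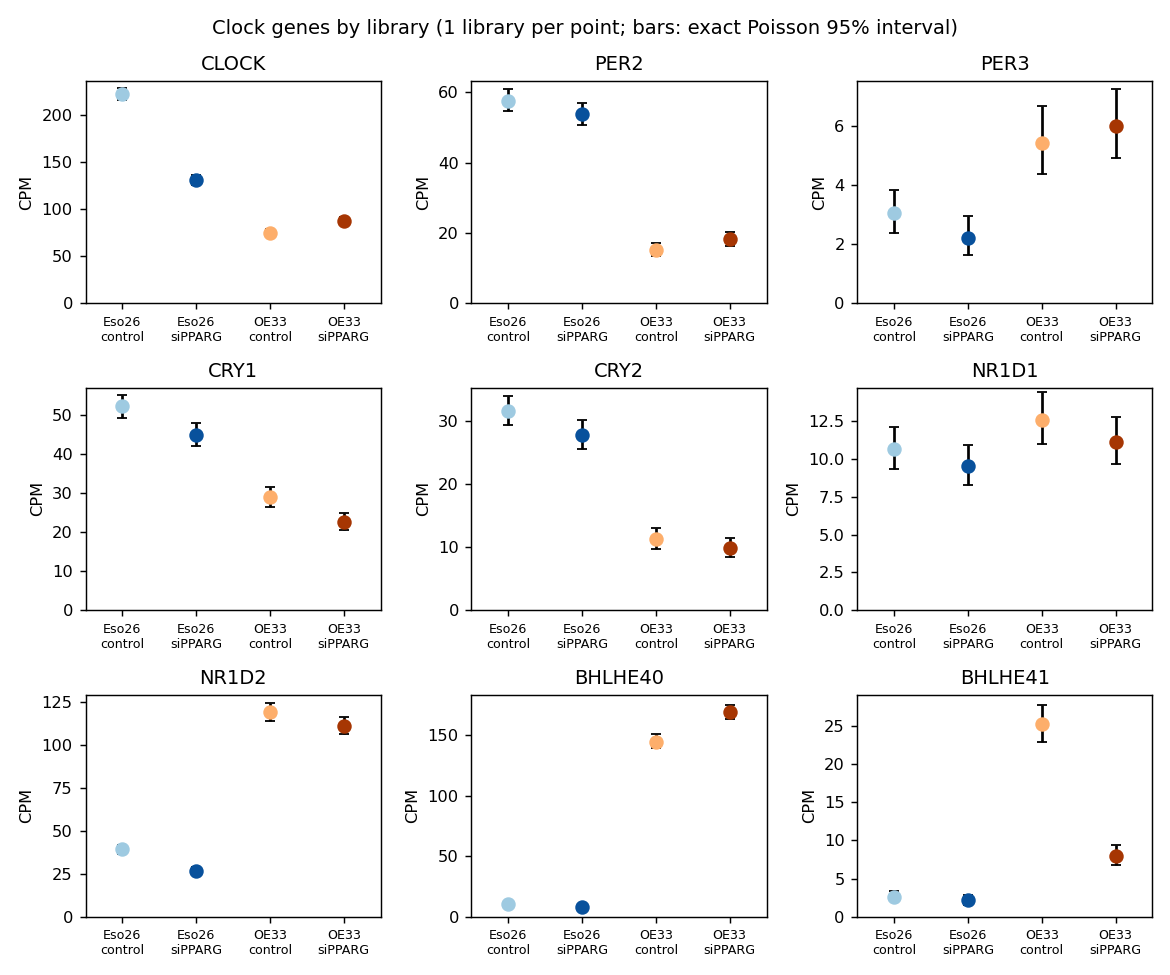
Level of each clock gene in CPM (y axis, from 0) in the 4 libraries (x axis), with exact Poisson 95% intervals. BHLHE40 and NR1D2 stood higher in both OE33 libraries and CLOCK, PER2, CRY1 and CRY2 higher in both Eso26 libraries, while BHLHE41 was at 25.3 CPM in the OE33 control and between 2.17 and 7.98 CPM in the other libraries.

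In OE33, siPPARG left the clock genes within 1.5-fold of the control with the exception of BHLHE41. BHLHE41 was lower by about 3-fold while its paralog BHLHE40 was slightly higher. Of the 9 genes, 5 were lower and 4 higher, where 50% of all genes past the filter stood on each side. The median log2 fold was -0.096, against 0.0002 over these 10527 genes. Counting intervals lay below 1 for 3 of them (BHLHE41, CRY1 and NR1D2) and above 1 for 3 (BHLHE40, PER2 and CLOCK). Over all genes past the filter, 24.8% had an interval below 1 and 25.8% above 1. Past 1.5-fold, 1 clock gene was lower and 0 higher, and over all genes 2.32% were lower and 3.32% higher.

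BHLHE41, the repressor that set the choice of members, had 429 counts (25.3 CPM) in the OE33 control, compared with 144 (7.98 CPM) after siPPARG. In Eso26 it had 60 counts in the control and 45 in the library labelled siPPARG (2.64 and 2.17 CPM). The OE33 control thus stood above the other libraries, with an interval of 22.9 to 27.8 CPM, against 6.73 to 9.39 CPM in OE33 siPPARG. The OE33 fall of BHLHE41 set the choice of members, so its OE33 values and rank are a description only. The OE33 ratio was 0.316 (interval 0.259 to 0.382), the ninth lowest log2 fold (-1.65) of 10527 genes, of which 0.418% were lower past 2-fold. The Eso26 ratio was 0.822 with an interval of 0.546 to 1.23 that spans 1. In the RefSeq annotation SSPN, the sarcospan gene, overlaps BHLHE41, and the strand setting of the authors' counting is not known. SSPN was also lower in OE33, from 197 to 100 counts (ratio 0.477, interval 0.371 to 0.610), while in Eso26 it had 66 and 63 counts. Whether reads of one gene were counted for the other was not tested.

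BHLHE40, the close relative of BHLHE41, was higher in OE33 and lower in Eso26. In OE33 it had 2456 counts in the control and 3049 after siPPARG (145 and 169 CPM), a ratio of 1.17 (interval 1.11 to 1.23). In Eso26 it had 244 counts in the control and 168 in the library labelled siPPARG (10.7 and 8.09 CPM), a ratio of 0.755 (interval 0.616 to 0.923). The line separated these libraries far more than the siRNA did. An antisense gene, BHLHE40-AS1, overlaps it and held between 15 and 19 counts in each library.

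In Eso26, the clock genes stood on the low side in the library labelled siPPARG, led by CLOCK and NR1D2. All 9 genes had a ratio below 1, the 2 under the filter included. Among genes past the filter 48.9% had a negative log2 fold, and 46.3% did without a filter. Of the 7 clock genes past the filter, 5 had a counting interval below 1 (CLOCK, NR1D2, BHLHE40, CRY1 and CRY2) and 0 above 1, and over all 10449 genes 27.7% were below and 25.4% above. Past 1.5-fold, CLOCK was lower and 0 clock genes were higher, against 1.04% and 1.36% of all genes. The median log2 fold of the 7 was -0.22, against 0.0053 over all genes. PPARG itself was not detectably lower in this library.

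**Figure D2:**
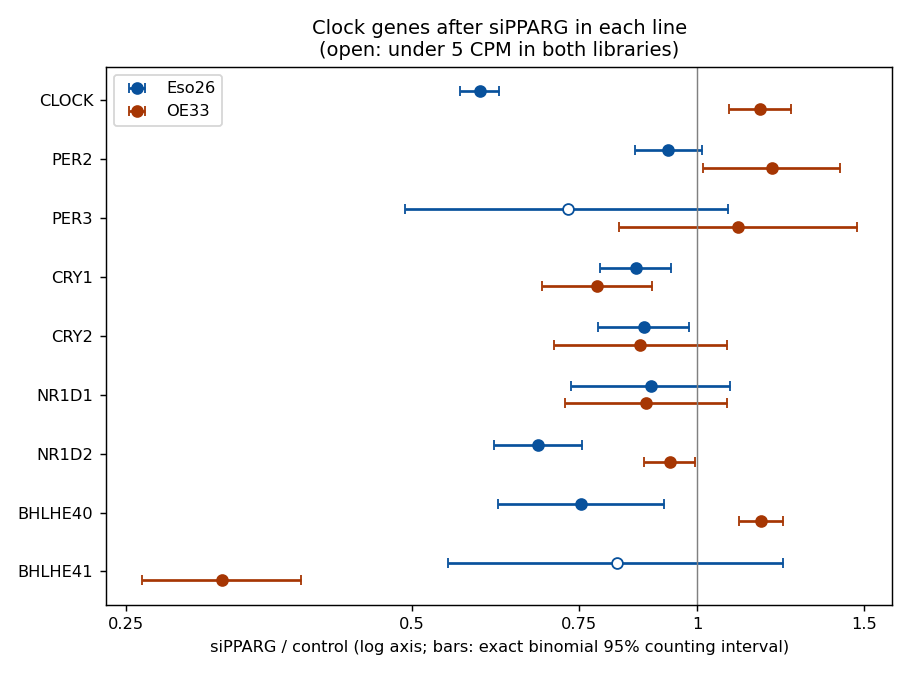
Ratio of siPPARG to control (x axis, log scale) for each clock gene (y axis) in Eso26 (blue) and OE33 (brown), with exact binomial 95% counting intervals and open points for genes under 5 CPM in both libraries of the line. The Eso26 points all lie left of 1, with CLOCK lowest at 0.589, and BHLHE41 in OE33 lies farthest left at 0.316.

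CLOCK encodes the DNA-binding activator of the loop. It had 5068 counts in the Eso26 control and 2725 in the library labelled siPPARG (223 and 131 CPM), a ratio of 0.589 (interval 0.562 to 0.618). That log2 fold of -0.76 was number 33 from the lowest among 10449 genes. In OE33 it had 1275 and 1580 counts in control and siPPARG (75.1 and 87.5 CPM), a ratio of 1.165 (interval 1.08 to 1.255). The Eso26 control thus stood highest and the OE33 control lowest. TMEM165, a Golgi membrane protein gene that overlaps CLOCK in the RefSeq annotation, stood at 1.002 in Eso26 (interval 0.957 to 1.05) and stood at 1.21 in OE33 (interval 1.14 to 1.28).

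**Figure D3:**
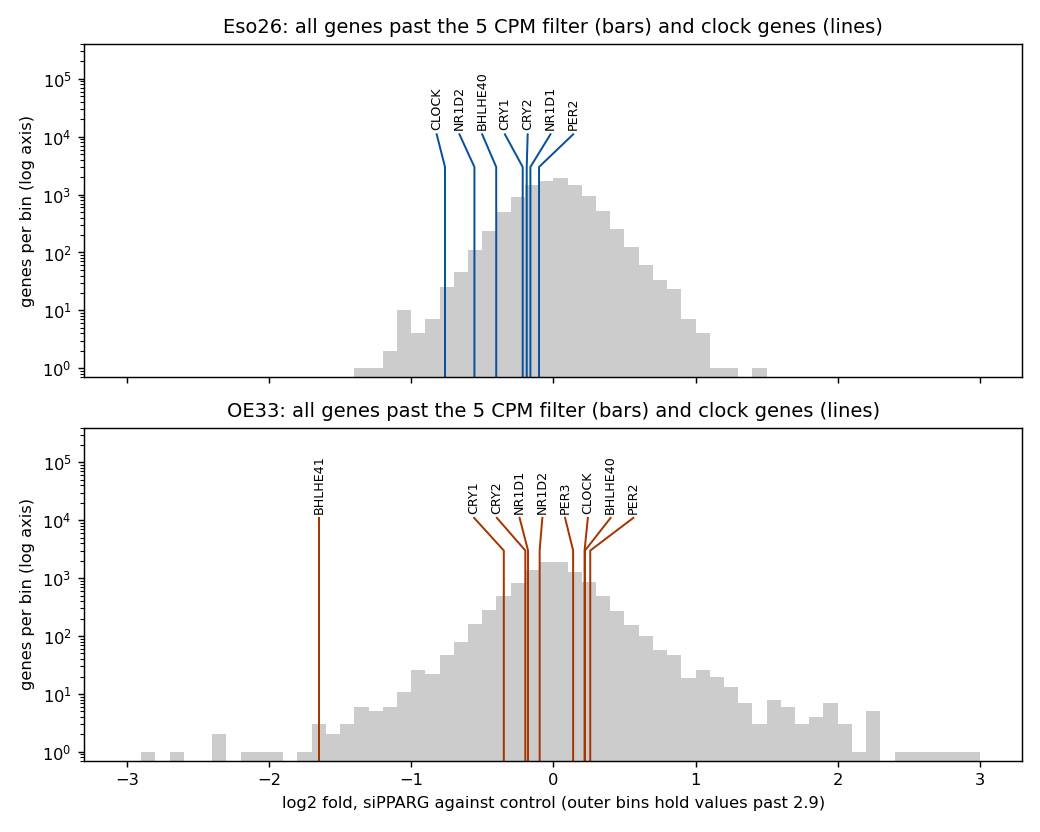
Number of genes past the 5 CPM filter (y axis, log scale) by log2 fold of siPPARG against control (x axis) in Eso26 (top) and OE33 (bottom), with the clock genes as lines. CLOCK at -0.76 lies in the lower flank of the Eso26 genes, and in OE33 BHLHE41 at -1.65 stands apart from the other clock genes, which run from -0.35 to 0.26.

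The period genes, whose proteins bind CRY to inhibit CLOCK and ARNTL, had no interval below 1 after siPPARG. PER2 had 1312 counts in the Eso26 control and 1116 in the library labelled siPPARG (57.6 and 53.7 CPM), a ratio of 0.933 whose interval of 0.860 to 1.01 includes 1. In OE33 PER2 had 258 and 329 counts (15.2 and 18.2 CPM), a ratio of 1.20 (interval 1.015 to 1.42). PER3 was sparse, with 69 and 46 counts in Eso26 and 92 and 108 in OE33, and both intervals include 1 (0.492 to 1.08 and 0.828 to 1.47). PER2 separated the lines in every library, with both Eso26 libraries above both OE33 libraries.

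The cryptochrome genes, whose proteins act with PER, were on the low side in both lines. CRY1 had 1188 and 933 counts in Eso26 (52.2 and 44.9 CPM), a ratio of 0.861 (interval 0.789 to 0.939). In OE33 it had 490 and 409 counts (28.9 and 22.7 CPM), a ratio of 0.784 (interval 0.686 to 0.896). Neither value reached 1.5-fold. CRY2 stood at 0.878 in Eso26 (718 and 575 counts, interval 0.785 to 0.981). In OE33 CRY2 had 191 and 177 counts, and the interval of its ratio, 0.706 to 1.07, includes 1.

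NR1D2 and NR1D1 encode the REV-ERB repressors of ARNTL. NR1D2 had 895 counts in the Eso26 control and 555 in the library labelled siPPARG (39.3 and 26.7 CPM), a ratio of 0.680 (interval 0.610 to 0.757). In OE33 it had 2023 and 2013 counts (119 and 111.5 CPM), a ratio of 0.935 with an interval of 0.879 to 0.995. NR1D1 had 243 and 198 counts in Eso26 and 214 and 201 in OE33, with ratios of 0.893 and 0.883 whose intervals (0.737 to 1.08 and 0.725 to 1.075) include 1. NR1D1 overlaps THRA, the thyroid hormone receptor alpha gene, which stood at 1.26 in Eso26 (interval 1.12 to 1.42) and 0.991 in OE33. NKIRAS1 overlaps NR1D2 and had intervals that include 1 in both lines.

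Between the control libraries of the lines, 8 of the 9 clock genes differed past 1.5-fold, 4 higher and 4 lower in OE33, where 30.8% of all 11200 genes were higher and 28.7% lower. BHLHE40 was 13.8-fold higher in OE33 (interval 12.1 to 15.8), BHLHE41 9.78-fold (interval 7.45 to 13.0), NR1D2 3.09-fold (interval 2.86 to 3.35) and PER3 1.82-fold (interval 1.32 to 2.53). PER2 stood at 0.269 times Eso26 (interval 0.234 to 0.308), CLOCK at 0.344 (interval 0.323 to 0.366), CRY2 at 0.364 (interval 0.309 to 0.427) and CRY1 at 0.564 (interval 0.507 to 0.627). NR1D1 was 1.205-fold with an interval of 0.998 to 1.45, which just reaches 1. BHLHE41 and PER3 passed the filter through OE33 alone, where they are higher. The OE33 control value of BHLHE41 is also part of the fall that set the choice of members. Both are therefore in these counts as a description only. Apart from them, BHLHE40 and NR1D2 were higher past 1.5-fold and PER2, CLOCK, CRY2 and CRY1 lower. Past 2-fold, 3 clock genes were higher in OE33, BHLHE41 among them, and 3 lower. Over all genes 20.8% were higher and 16.9% lower past 2-fold.

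**Figure D4:**
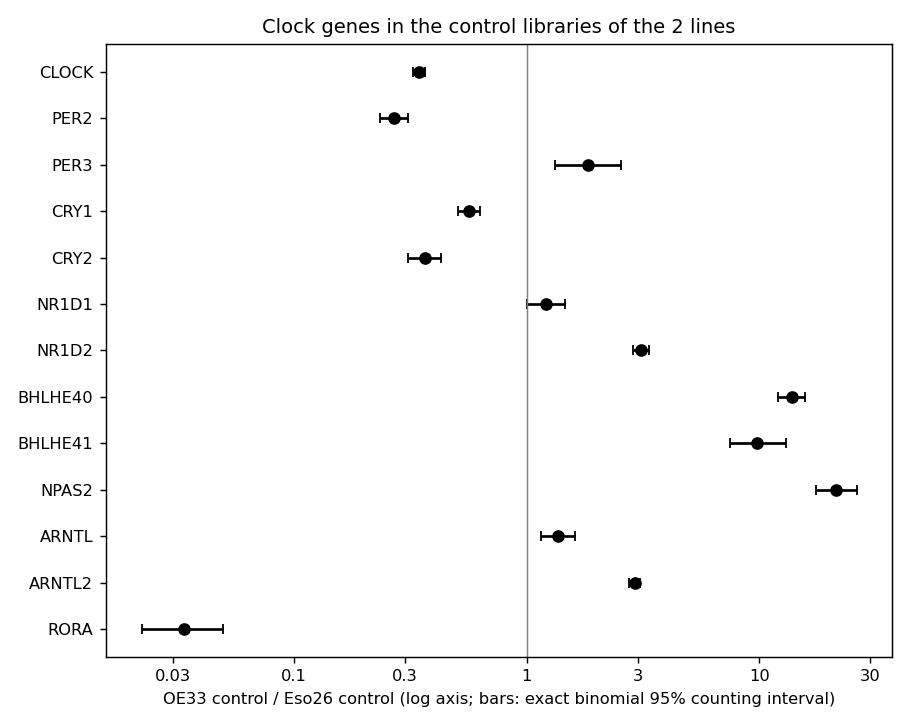
Ratio of the OE33 control to the Eso26 control (x axis, log scale) for the clock genes and 4 partner genes (y axis), with exact binomial 95% counting intervals. The repressors BHLHE40 and BHLHE41 and the CLOCK paralog NPAS2 lie at 9.78 to 21.3, CLOCK at 0.344 and RORA at 0.0337.

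The difference between lines was tested over the 4 libraries, 2 per line, with treatment as a term, by edgeR's quasi-likelihood test with Benjamini-Hochberg adjustment over 11387 genes. BHLHE41 and PER3 passed the filter only through their OE33 libraries, where they are higher, and BHLHE41 had set the choice of members, so both are given without a test. Of the 7 clock genes past the filter in both lines, a restriction made after the values were seen, edgeR called 6, with 2 higher and 4 lower in OE33. Among all 9589 genes past the filter in both lines 67.9% were called (33.7% higher and 34.2% lower), and among all genes tested 72.2% (36.3% higher and 35.9% lower), so a call here is common among all genes. BHLHE40 had a log2 ratio of OE33 to Eso26 of 4.09 (limma SE 0.19) with an edgeR adjusted p of 9.62e-06. NR1D2 had 1.86 (SE 0.15, edgeR adjusted p 9.04e-05), PER2 -1.71 (SE 0.15, 0.000125) and CRY2 -1.46 (SE 0.15, 0.000229). CRY1 had -0.89 (SE 0.13, edgeR adjusted p 0.00117) and CLOCK -1.05 (SE 0.23, 0.00666). For NR1D1 the log2 ratio was 0.26 (SE 0.17) with an edgeR adjusted p of 0.226. The log2 ratio of PER3 was 1.15 (SE 0.29). That of BHLHE41 was 2.67 (SE 0.36), and it was 1.76 without the OE33 control and 3.43 without OE33 siPPARG. Libraries of the lines did not overlap for any of the 9, as for 87.2% of all genes. Nothing in the labels says that the libraries of a line came from separate cultures beyond the transfection. These p-values set the line difference against the spread left after a common treatment effect, with 1 residual degree of freedom. That spread is how far the siPPARG difference differs between the lines, and not a spread of replicates. Both edgeR and limma also draw the spread of each gene toward that of all genes tested. The p-values and SE, those of CLOCK included, therefore do not rest on the gene's own spread alone. For CLOCK and BHLHE40 siPPARG went in opposite directions in the lines. Between the controls alone the CLOCK log2 ratio was -1.54. Between the siPPARG libraries the CLOCK difference was smaller (129.5 CPM in Eso26 and 88.4 in OE33).

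The paralogs of each pair were compared within a library, where the scaling of libraries plays no part. Counts of different genes also depend on transcript length, so only differences between libraries in such a ratio are read. In OE33, BHLHE40 had 5.72 counts for each count of BHLHE41 in the control (interval 5.17 to 6.36) and 21.2 after siPPARG (interval 17.9 to 25.2). That rise includes the OE33 fall of BHLHE41, which set the choice of members. In Eso26 the ratio of BHLHE40 to BHLHE41 was 4.07 and 3.73, with overlapping intervals. The ratio of CLOCK to NPAS2 was 48.3 in the Eso26 control (interval 39.8 to 59.1) and 28.1 in the library labelled siPPARG (interval 22.9 to 34.8). In OE33 it was 0.779 and 0.818, with overlapping intervals. PER2 to PER3 stood at 19.0 and 24.3 in Eso26 and at 2.80 and 3.05 in OE33. CRY1 to CRY2 ran from 1.62 to 2.56 over the 4 libraries, the narrowest range of the pairs plotted. NR1D2 to NR1D1 was 3.68 and 2.80 in Eso26 and 9.45 and 10.0 in OE33.

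**Figure D5:**
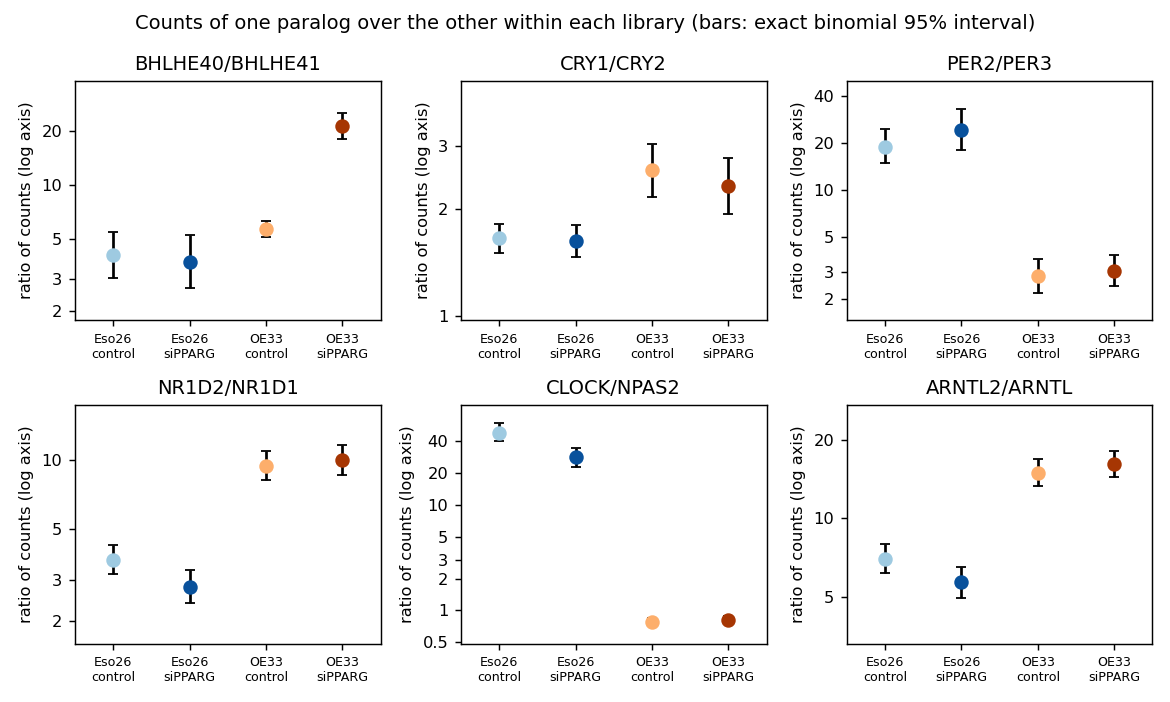
Ratio of the counts of paralogous clock genes (y axis, log scale) within each of the 4 libraries (x axis), with exact binomial 95% intervals. BHLHE40 to BHLHE41 is highest in OE33 siPPARG at 21.2. CLOCK to NPAS2 is 48.3 and 28.1 in Eso26 and 0.779 and 0.818 in OE33.

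The partners of the members are transcription factors of the same loop. ARNTL, a partner of CLOCK, had 292 and 249 counts in Eso26 and 291 and 301 in OE33. Both of its siPPARG ratios (0.935 and 0.972) have intervals that include 1. Its paralog ARNTL2 stood at 0.758 in Eso26 (2043 and 1412 counts, interval 0.708 to 0.811) and at 1.05 in OE33 (4341 and 4850 counts, interval 1.01 to 1.09). NPAS2 had 105 and 97 counts in Eso26 and 1636 and 1931 in OE33, where its ratio was 1.11 (interval 1.04 to 1.19). RORA, an activator of ARNTL, had 1097 and 675 counts in Eso26 (ratio 0.674, interval 0.612 to 0.743) and 27 and 29 in OE33. Between the lines ARNTL2 had an edgeR log2 ratio of 1.78 (adjusted p 0.000108) and ARNTL of 0.48 (adjusted p 0.0366). NPAS2 at 4.48 and RORA at -4.60 passed the filter only through the line in which they are higher, and are given without a test.

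Of 19 other clock genes (partners, kinases, ubiquitin ligases and modifiers), 13 passed the filter in each line and 0 were past 1.5-fold in either. In Eso26 11 were lower and 2 higher (median log2 fold -0.081), and in OE33 9 were lower and 4 higher (median -0.040). Among all genes past the filter, the share lower was 48.9% in Eso26 and 50% in OE33, with medians of 0.0053 and 0.0002. Of 10 clock output genes, 6 passed in Eso26, with 3 higher and 3 lower, and 8 in OE33, with 5 higher and 3 lower. KLF10, a repressor induced by TGF-beta, was the only one of these output genes past the filter to exceed 1.5-fold, at 0.651 in Eso26 (interval 0.571 to 0.743), and stood at 0.798 in OE33 (interval 0.742 to 0.857). NFIL3, the D-box repressor, was higher in both lines, at 1.18 in Eso26 (392 and 422 counts, interval 1.03 to 1.36) and 1.38 in OE33 (598 and 880 counts, interval 1.25 to 1.54). TEF, a D-box activator, had intervals that include 1 in both lines. In the test between lines, edgeR called 8 of the 11 other clock genes past the filter in both lines (6 higher and 2 lower in OE33) and 5 of 6 such output genes, against 67.9% of all genes past it in both lines.

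Lists of other gene programmes were described in the same libraries, and their part in the values above was not tested. In OE33 siPPARG, 15 of 16 hypoxia genes past the filter were higher (median log2 fold 0.27), all 19 interferon genes were higher (median 1.58) and all 20 mitosis genes were lower (median -0.39). Hypoxia is a known inducer of BHLHE40 and BHLHE41. The glucocorticoid list, a programme known to act on PER genes, had 6 of 9 higher (median 0.063). Of 10 immediate early genes past the filter, 8 were lower in Eso26 (median -0.31) and 6 in OE33 (median -0.15). The glucocorticoid list had 4 of 7 higher in Eso26 (median 0.095). The hypoxia, interferon and mitosis medians in Eso26 lay between -0.062 and 0.036. Over all genes past the filter, 48.9% were lower in Eso26 (median 0.0053) and 50% in OE33 (median 0.0002).

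The genes most like BHLHE41 over the 4 libraries were CPNE8, RERG, SLC2A13, FRY and RN7SL2. They had the smallest Euclidean distance of centred log2 CPM from it among 11387 genes (0.53 to 0.74). That distance takes in the OE33 fall of BHLHE41, so lower OE33 values in these genes follow from how they were picked. CPNE8, a copine gene, had 366 counts in the OE33 control and 145 in siPPARG (ratio 0.372), and 51 and 61 in Eso26. RERG, which encodes a RAS-like growth inhibitor, had 107 and 59 counts in OE33 (ratio 0.518) and 19 and 16 in Eso26. The inositol transporter gene SLC2A13 stood at 0.492 in OE33 and 0.812 in Eso26, and FRY at 0.460 and 1.58. The Eso26 value of FRY rests on 16 counts in the control and 23 in the library labelled siPPARG. RN7SL2 has many near-identical copies, so its counts are uncertain.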

How the data were processed

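The 4 RNA-seq libraries were analysed from the raw counts per gene that the authors deposited, which the file headers and values show as whole numbers without normalisation. Per the submitters' processing notes the build was hg19 and the tools were STAR, Bowtie, MACS2, Picard and Trim Galore, with no role for each. The counter, strand setting and annotation were not given in the sources used here. The series' text speaks of triplicates, but each table holds 1 column per condition, treated as 1 library. Of 37533 rows, 40 repeat an identifier and were summed with their partner. The deposited peak lists were not used here.

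In R 4.3.3, edgeR 4.0.16 gave TMM factors for the counts, within a line for siPPARG against control and over the 4 libraries between lines. Log2 folds used a prior count of 2, and a gene was kept if either library compared reached 5 CPM (for the line test, any of the 4). Ratios carry exact conditional binomial (Clopper-Pearson) 95% intervals, and CPM exact Poisson intervals. The line test was edgeR's quasi-likelihood test, with Benjamini-Hochberg adjustment at 0.05. Standard errors come from limma 3.58.1 (voom), and DESeq2 1.42.0 was an alternative.

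Named genes were PPARG, the 9 members, other clock and output genes past 1.5-fold in either line, the core partners (ARNTL, ARNTL2, NPAS2, RORA) and D-box factors (TEF, NFIL3) past the filter, and the 5 genes nearest BHLHE41. Overlapping genes were added after their values were seen. The members and lists were chosen with earlier results of these data known. Levels of different genes were not compared, as no transcript lengths were used.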

Additional observations from a re-analysis of the deposited data

Results flagged for a closer look

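CLOCK and BHLHE40 went in opposite directions in the lines, with a counting interval off 1 in each. CLOCK stood at 0.589 times the control in the Eso26 library labelled siPPARG and at 1.165 in OE33 siPPARG. BHLHE40 stood at 0.755 in Eso26 and at 1.167 in OE33. The difference between the lines was not tested, since each condition had 1 library.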

How the results depend on the processing

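Alternatives were library totals or RLE factors in place of TMM, prior counts of 0.5 and 5, filters of 1 CPM, 10 CPM and none, other tools for the line test, and promoter windows before the start only. Other size factors, filters and prior counts shift the genes of a comparison nearly together, so most values of single genes could hardly leave their intervals. Of 272 values of single clock genes under an alternative, 271 stayed within their counting interval or on their side of the threshold. The exception was PER3 between lines without the Eso26 library labelled siPPARG (log2 ratio 0.93), which was no longer called. All 100 counts stayed within 1.5 times, 1 of them (genes past the filter in both lines) chosen after seeing the data. With BHLHE41 and PER3 included, 8 clock genes were called between lines with DESeq2 and with limma. Over all 11387 genes tested, DESeq2 called 7597 and limma 8271, so such a call is common among all genes. BHLHE41 and PER3 are in this count as a description only, for the reasons given with the line test. With 1 library left out, line was the only term and 1 residual degree of freedom remained. Those fits leave 1 library in a line, so their calls are not counted here. Adjusted p-values over these alternatives ran from 7.55e-62 to 0.000285 for BHLHE40, from 1.24e-05 to 0.0186 for CLOCK and from 0.184 to 0.527 for NR1D1. Without the OE33 control the log2 ratio of BHLHE41 between lines was 1.76, and without OE33 siPPARG it was 3.43, against 2.67. Clock genes higher in the OE33 control with an interval off 1 were 5 with RLE factors, with the 1 CPM filter and without a filter, where NR1D1 joins them, and 3 with the 10 CPM filter, which PER3 does not pass, against 4. In Eso26 the number of clock genes with an interval below 1 was 4 with library totals, against 5. No replicates could be paired within a line, because the labels give no replicate numbers. A fit of siPPARG against control with line as a term was possible but was not used, since it would rest on the OE33 comparison in view of which the members were chosen. Depth limits BHLHE41 and PER3 in Eso26 most, with 45 to 69 counts.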

Other observations

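DBP, the D-box activator that is a classic output of the clock, was under the filter in both lines and was picked out after its values were seen. In OE33 it had 77 counts in the control and 44 after siPPARG (ratio 0.537, interval 0.362 to 0.788). In Eso26 it had 49 and 60 counts (ratio 1.34, interval 0.905 to 1.999). CIART, a further repressor of the CLOCK and ARNTL pair that was likewise picked out afterwards, had 124 and 114 counts in OE33 and 6 and 7 in Eso26.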
